A study of Mus musculus with 12 samples.

Results

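Hba-x, Hbb-bh1, Alas2 and Car2 are 4 genes of red blood cells, and each was read by 1 probe among the 10689 features tested. They were chosen by exact gene symbol, and the rule itself used no values, but earlier results of these data were known when it was set. Mouse R1 embryonic stem (ES) cells, a single line kept undifferentiated on gelatin with leukemia inhibitory factor, were compared with embryoid bodies (EB), aggregates of differentiating ES cells. The EB were dissociated and cultured on dishes in medium with fetal bovine serum for 4, 8, 15 or 21 days, with no directed signal named in the labels. Each day had 3 two-colour arrays, 12 in all, and every array held EB RNA in 1 channel and ES RNA in the other. The values are log ratios of the channels, read as log2, so that 1 stands for a doubling. Separate cultures for the 3 arrays of each day are not stated in the labels. The p-values therefore cover the scatter of arrays within a day, which may be technical.

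A value above 0 is taken to mean more RNA in EB than in ES cells. That reading is probable without being settled: the label protocols give Cy5 to EB RNA, while the titles and dye fields put ES RNA first and in Cy5. Under this reading 9 of 11 measured ES cell genes were called lower at day 21 and 14 of 17 genes of yolk sac endoderm and liver were called higher. These markers helped to decide the direction and are no independent evidence of it. Were the ratios inverted, all directions given here would turn round, with the p-values as printed. In such mixed cultures fewer cells of a type and less RNA per cell cannot be told apart. Signal intensities were not used here, so a ratio near 0 may also come from a probe without detectable signal.

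The arrays also fell into 2 sets. At 4 fixed places in each run of 480 feature numbers the table has features without a gene, 96 in all. Their median lay between -0.31 and 0.06 on 7 arrays, called the first set, and between -1.54 and -1.04 on the other 5, called the second set. The second set held array 3 of days 4, 8, 15 and 21 and array 2 of day 8. What these features are is not given in the sources used here. Because every day has arrays of both sets, the main results are given below also with the set as a term and within each set. The term is 1 shift common to all days, so it cannot take out a difference between sets that varies by day.

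The first red cells of the embryo arise in the blood islands of the yolk sac, beside the visceral endoderm, and carry embryonic forms of hemoglobin. Hba-x encodes the embryonic alpha-like chain zeta, and Hbb-bh1 and Hbb-y encode embryonic beta-like chains. Alas2 encodes the erythroid form of 5-aminolevulinate synthase, which catalyses the first step of heme synthesis. Car2 encodes carbonic anhydrase II, the cytosolic enzyme that interconverts carbon dioxide and bicarbonate in red cells and also in several epithelia and in bone-resorbing cells. In erythroid cells GATA1 binds GATA motifs and KLF1 binds CACC boxes in globin and heme gene promoters.

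The promoters of Hba-x and Alas2, whose probes were highest on the same arrays, are shown for these motifs, with that of Hbb-y, a globin gene whose ratios followed those of Hba-x. Each is the 250 bases before the transcription start in RefSeq's GRCm38.p6, 5′ to 3′ on the gene's strand. Of the 4 genes, 2 were matched in the promoter table. Capitals mark, on either strand, the GATA motif GATAA, the CACC box CCACCC, the TATA motif TATAAA and the CCAAT box.
Hba-x, chr11:32276350-32276599, plus strand: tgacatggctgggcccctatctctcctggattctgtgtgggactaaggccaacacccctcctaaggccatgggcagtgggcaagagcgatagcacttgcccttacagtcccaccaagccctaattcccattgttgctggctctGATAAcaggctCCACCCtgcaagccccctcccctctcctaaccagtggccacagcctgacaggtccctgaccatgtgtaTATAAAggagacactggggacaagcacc
Alas2, chrX:150547167-150547416, plus strand: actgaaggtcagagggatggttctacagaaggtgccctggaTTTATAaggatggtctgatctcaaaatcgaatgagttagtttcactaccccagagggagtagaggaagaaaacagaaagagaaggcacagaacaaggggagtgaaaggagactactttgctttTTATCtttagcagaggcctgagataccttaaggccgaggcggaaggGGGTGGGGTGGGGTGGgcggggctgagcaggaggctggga
Hbb-y, chr7:103853208-103853457, minus strand: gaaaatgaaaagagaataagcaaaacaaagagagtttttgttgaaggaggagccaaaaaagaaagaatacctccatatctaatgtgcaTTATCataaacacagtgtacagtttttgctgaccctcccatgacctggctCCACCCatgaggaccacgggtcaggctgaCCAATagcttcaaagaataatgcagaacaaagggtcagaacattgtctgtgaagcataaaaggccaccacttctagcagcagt

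All 3 windows held both GATAA and CCACCC, as did 5% of the 32851 promoter windows of the same length. Taken singly, GATAA was in 22.6%, CCACCC in 28.1%, TATAAA in 12.4% and CCAAT in 33.8% of those windows. Counted from the start, with -1 the last base of the window, Hba-x had GATAA at -107 to -103, CCACCC at -96 to -91 and TATAAA at -28 to -23. Hbb-y had GATAA on the opposite strand at -162 to -158 and CCACCC at -112 to -107. Alas2 had GATAA on the opposite strand at -86 to -82 and 3 copies of CCACCC on that strand between -40 and -25, neighbours sharing a base. A match of letters is a description and no evidence of binding.

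Hba-x was the member with the highest ratios, and these were on arrays of days 15 and 21. At day 4 it was -0.07, 0.17 and 0.09 on arrays 1 to 3, and at day 8 it was -0.06, -0.0052 and -0.04. At day 15 it was 1.74, 1.75 and 0.38, and at day 21 it was 1.48, 1.06 and -0.08. Arrays 1 and 2 of both late days lay above all arrays of days 4 and 8, while array 3 of day 21 lay below them. Hba-x was called higher at day 15, with a mean of 1.29 ± 0.79 (SD, n = 3, limma adjusted p = 0.0106), which is 2.44-fold if the base is 2. That mean ranked 41 from the top of 10689 features. Hba-x was the 1 of the 4 genes called at day 15, where 10.6% of all features were called and 5.66% called higher. At day 8, where 2.28% of features were called, limma called 0 of the 4 genes, and 0 had an unadjusted p under 0.05. At day 21 Hba-x averaged 0.82 ± 0.81 and missed the threshold (adjusted p = 0.0524).

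The spread of Hba-x within the late days was wide. Its SD was larger than that of 99.1% of features at day 15 and 99.2% at day 21, against a median SD of 0.15 on both days. The limma fit used a spread estimated over all 4 days. The SDs of Hba-x were 0.12 at day 4, 0.03 at day 8, 0.79 at day 15 and 0.81 at day 21. The p-value at day 15 therefore does not rest on the scatter of that day by itself. Fitted with day 15 alone, the mean of 1.29 was not called (limma adjusted p = 0.0812). On both late days the array that stood low was array 3, the array of the second set. Within the first set Hba-x was 1.74 at day 15 (adjusted p = 2.88e-04) and 1.27 at day 21 (adjusted p = 8.92e-04). Within the second set, which has 1 array a day at these times, it was 0.38 (adjusted p = 0.278) and -0.08 (adjusted p = 0.807). With the set as a term it was 1.18 at day 15 (adjusted p = 0.0047) and 0.71 at day 21 (adjusted p = 0.0357). The term itself, the first set minus the second over all days, was 0.66 for Hba-x and did not pass (adjusted p = 0.244). For Hba-x the sets were far apart on the late days only. The first and second set averaged 0.05 and 0.09 at day 4, and -0.06 and -0.02 at day 8. A single shift for all days therefore does not take out the late difference between the sets. The day 15 call rested on both high arrays: the mean was 1.06 without array 1 (adjusted p = 0.109) and 1.06 without array 2 (adjusted p = 0.129). Hba-x was called at day 21 without array 3 of that day (1.27, adjusted p = 0.00717). Over the 12 omissions its day 21 mean ran from 0.49 to 1.27, with a limma adjusted p up to 0.36 and a call in 2.

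From highest to lowest mean the order for Hba-x was day 15, day 21, day 4 and day 8. No difference between neighbours in this order was called: day 21 minus day 15 was -0.47 (adjusted p = 0.912, where 0.00936% of features were called), day 21 minus day 4 was 0.76 (adjusted p = 0.302) and day 8 minus day 4 was -0.10 (adjusted p = 0.976). The step between day 15 and day 8, 1.32, ranked 21 from the top but was not called (adjusted p = 0.258), and 0.178% of features were called there. Day 15 minus day 4 was 1.23 (adjusted p = 0.157), and 1.34% of features were called. Without array 3 of day 15, the low array, day 15 minus day 8 was 1.78 (adjusted p = 0.0273) and day 15 minus day 4 was 1.68 (adjusted p = 0.0185). Each contrast was called in that 1 of the 12 omissions alone. Over the 12 omissions the limma adjusted p reached 0.764 and 0.503.

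**Figure D1:**
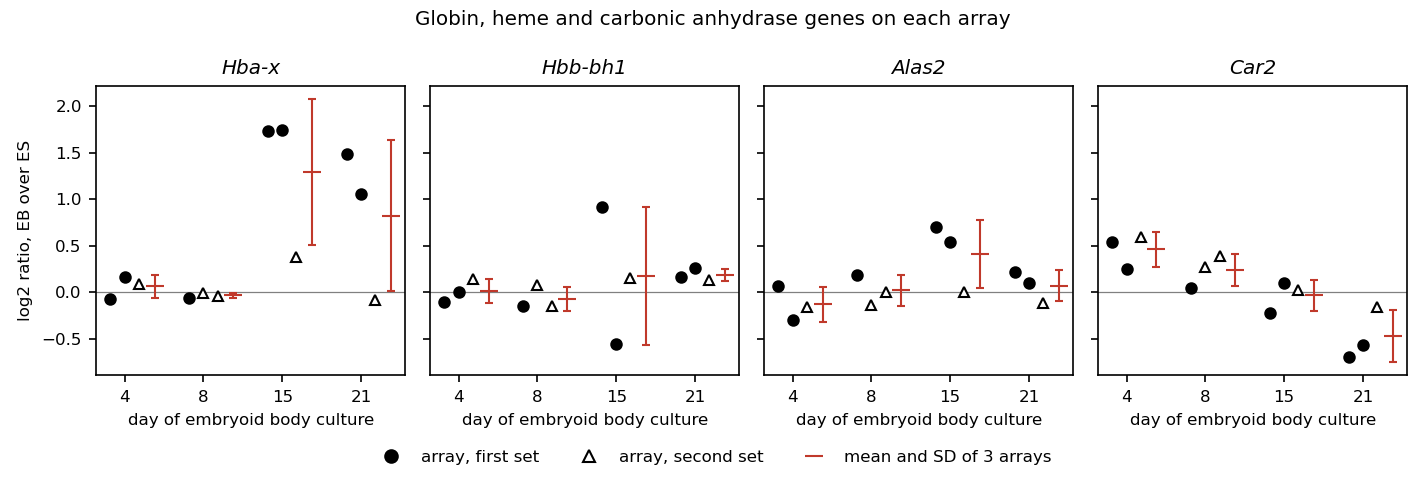
Log2 ratio of EB over ES for Hba-x, Hbb-bh1, Alas2 and Car2 on each of 12 arrays by day, with filled circles for the first array set, open triangles for the second, and bars for the mean and SD of 3 arrays. Hba-x stood at 1.06 to 1.75 on 4 late arrays of the first set, and the mean of Car2 was lower on each later day.

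Hbb-bh1, the embryonic beta-like chain, did not follow Hba-x. It was -0.11, -8e-04 and 0.14 at day 4, and -0.15, 0.08 and -0.15 at day 8. At day 15 it was 0.92, -0.56 and 0.15 on arrays 1 to 3, so the arrays with equal Hba-x ratios lay on opposite sides of 0. At day 21 it was 0.16, 0.25 and 0.13. The mean was 0.17 ± 0.74 at day 15 (adjusted p = 0.617) and 0.18 ± 0.06 at day 21 (adjusted p = 0.532). The 95% interval at day 15 ran from -0.24 to 0.58. It uses a spread estimated over all 4 days, whose SDs were 0.13 at days 4 and 8, 0.74 at day 15 and 0.06 at day 21. Because these SDs were so unequal, the interval does not measure the scatter of day 15. It is an interval for the mean, and single arrays can lie outside it, as arrays 1 and 2 of day 15 did. In order of mean the days were 21, 15, 4 and 8, and no contrast between days was called.

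The array carried other globin genes that help to place these values, though most of the globin list was not measured: 4 of 14 listed genes had a probe of their own. Hbb-y, the other embryonic beta-like chain, was 0.0049, -0.03 and -0.10 at day 4 and -0.47, -0.05 and -0.29 at day 8. It was 1.42, 2.07 and -0.14 at day 15 and 1.55, 1.30 and -0.21 at day 21. The high arrays were thus the same 4 as for Hba-x, and array 3 of both late days was below 0. Its means of 1.12 ± 1.13 at day 15 and 0.88 ± 0.95 at day 21 did not pass (adjusted p = 0.0631 and 0.104). Hbb-b2, an adult beta chain, was 0.69, 1.03 and 0.13 at day 15 and 1.75, 1.47 and 0.70 at day 21. It was called higher on both days, at 0.62 ± 0.45 (adjusted p = 0.0444) and 1.31 ± 0.54 (adjusted p = 4.48e-04), and its day 21 arrays all lay above those of days 4 and 8. The day 15 call was lost whichever array of day 8 was left out, and without array 1 or 2 of day 15. Beta-like globin genes are close in sequence and probe sequences were not used here, so how far their probes read each other's RNA is not known.

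**Figure D2:**
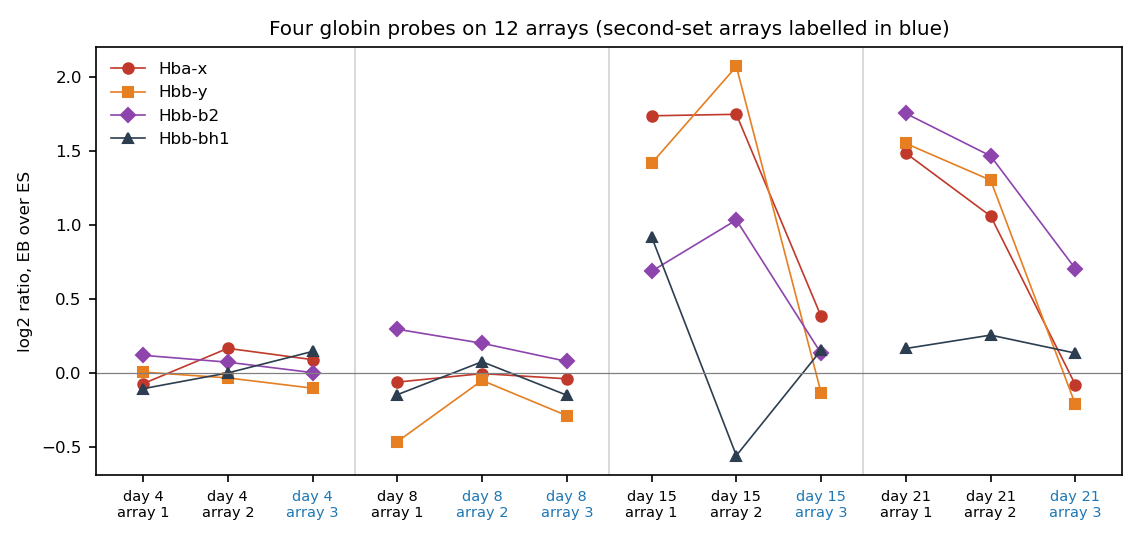
Log2 ratio of EB over ES for the globin genes Hba-x, Hbb-y, Hbb-b2 and Hbb-bh1 on each array, in order of day, with arrays of the second set labelled in blue and lines joining the arrays of a day. Hba-x and Hbb-y were above 1 on arrays 1 and 2 of days 15 and 21, whereas Hbb-bh1 passed 0.5 on a single array.

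Alas2 stood out at day 15 alone. It was 0.07, -0.30 and -0.16 at day 4 and 0.19, -0.14 and 0.0042 at day 8. It was 0.69, 0.54 and 0.0015 at day 15, and 0.22, 0.09 and -0.11 at day 21. Arrays 1 and 2 of day 15 were above all other arrays. The mean of 0.41 ± 0.36 at day 15 missed the threshold (adjusted p = 0.0537), and that at day 21 was 0.07 ± 0.17 (adjusted p = 0.753). As for Hba-x, array 3 was the low array of day 15. Within the first set Alas2 was 0.62 at day 15 (adjusted p = 0.0111), and in the second set it was 0.0015 (adjusted p = 0.998). It was called with the set as a term (0.36, adjusted p = 0.0372). By mean the order was day 15, day 21, day 8 and day 4. Day 21 minus day 15 was -0.35 (adjusted p = 0.82) and day 8 minus day 4 was 0.15 (adjusted p = 0.916); neither was called, and day 21 was not tested against day 8.

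The other enzymes of heme synthesis gave no common direction. Of the 9 measured genes of the heme list besides Alas2, 1 was called higher at day 15 and 1 lower at day 21, and the list median was 0.07 and 0.04, against 0.0074 and 0.0031 over all features. The gene called higher was Ppox, protoporphyrinogen oxidase, near the end of the pathway. It was 0.84, 0.69 and 0.14 on the day 15 arrays (0.55 ± 0.37, adjusted p = 0.0083) and 0.11 ± 0.10 at day 21. This is the order of arrays seen for Alas2, and Ppox was among the 5 genes most like Alas2 over 12 arrays (Pearson's r = 0.92, a description). The gene called lower at day 21 was Alas1, the synthase of other tissues (-0.31 ± 0.13, adjusted p = 0.0406). Alad, which joins the products of the synthase, was 0.31 ± 0.30 at day 15 (adjusted p = 0.102). Urod was -0.38 ± 0.09 at day 21 (adjusted p = 0.0932). Fech, which inserts the iron, was 0.03 ± 0.14 at day 15 and 0.24 ± 0.20 at day 21 (adjusted p = 0.896 and 0.0887).

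**Figure D3:**
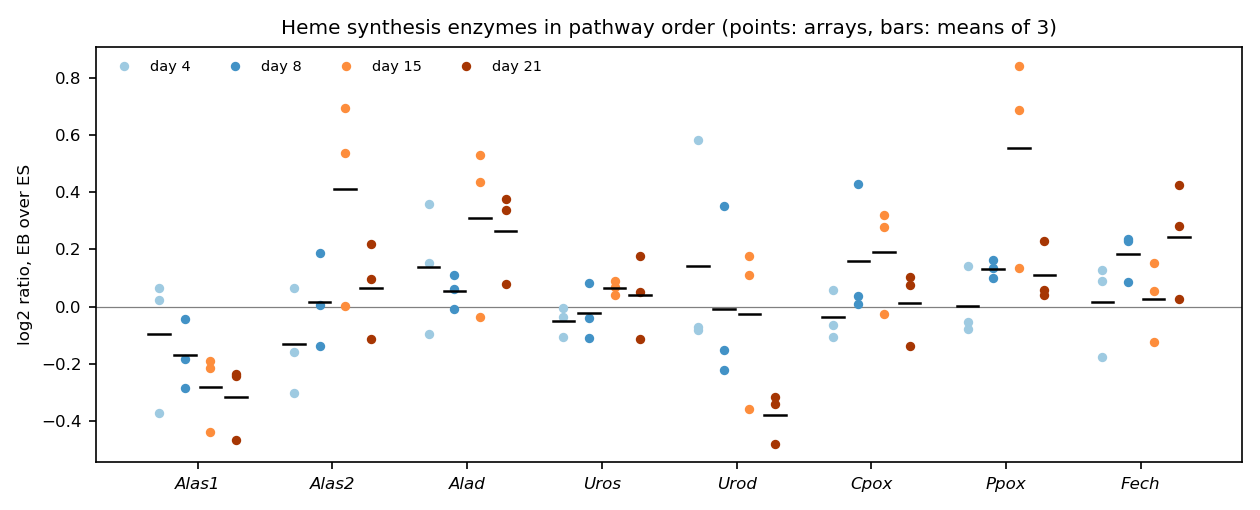
Log2 ratio of EB over ES for enzymes of heme synthesis in pathway order, 3 arrays (points) and their mean (bar) for each of 4 days. Alas2 and Ppox were highest on 2 arrays of day 15, while Alas1 lay below 0 on all arrays of days 8, 15 and 21.

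Car2 had its highest ratios at day 4 and its lowest at day 21. It was 0.54, 0.25 and 0.59 at day 4 and 0.05, 0.27 and 0.39 at day 8. It was -0.22, 0.09 and 0.02 at day 15 and -0.70, -0.57 and -0.16 at day 21. The day 4 arrays were all above those of day 15, and those of day 21 were all below 0. The means were 0.46 ± 0.19, 0.24 ± 0.17, -0.04 ± 0.16 and -0.48 ± 0.28 in order of day. Car2 was called lower at day 21 (adjusted p = 0.012), as the 1 of the 4 genes, where 18.7% of all features were called and 9.93% called lower. At day 4 its mean ranked 79 from the top of all features but was not called (adjusted p = 0.206), on a day when limma called 0% of features. An unadjusted p under 0.05 at day 4 was reached by 1081 features, among them 1 of the 4 genes, Car2.

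Car2 was also the 1 of the 4 genes with a called difference between days (F-test, adjusted p = 0.0274), against 2.9% of all features. That call was lost without array 1 or 3 of day 4, array 2 of day 8, or array 1 or 2 of day 21. Day 21 minus day 4 was -0.93 (adjusted p = 0.00621), a fall shown by all 3 arrays of day 21 against all 3 of day 4, and 5.84% of features were called in that contrast and 3.22% called lower. The decline was spread over the time course, and no step between neighbouring days was called (-0.22, -0.27 and -0.44, adjusted p = 0.83, 0.652 and 0.703). The difference between day 21 and day 4 was -1.03 within the first set (adjusted p = 0.013) and -0.75 within the second (adjusted p = 0.273). With the set as a term Car2 was called at both ends, at 0.50 on day 4 (adjusted p = 0.0304) and -0.43 on day 21 (adjusted p = 0.00745). The day 21 call was lost without array 1 of that day (-0.37, adjusted p = 0.121) and without array 2 (-0.43, adjusted p = 0.0905).

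Of the 14 other carbonic anhydrase genes measured, 0 had a called difference between days and 1 had an unadjusted p under 0.05 (limma F-test). Car4, a membrane-bound form, was called higher at day 15 (1.09 ± 0.27, adjusted p = 0.00668) and day 21 (1.17 ± 0.18, adjusted p = 0.00283). Car14, another membrane form, was called higher at day 21 (1.09 ± 0.57, adjusted p = 0.00911). Car6, the secreted form of saliva, was called lower at day 21 (-0.61 ± 0.35, adjusted p = 0.024) and was at -0.34 ± 0.16 on day 4. Car1, the other abundant form of red cells, was 0.26 ± 0.07 at day 15 (adjusted p = 0.084) and 0.15 ± 0.08 at day 21 (adjusted p = 0.257).

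**Figure D4:**
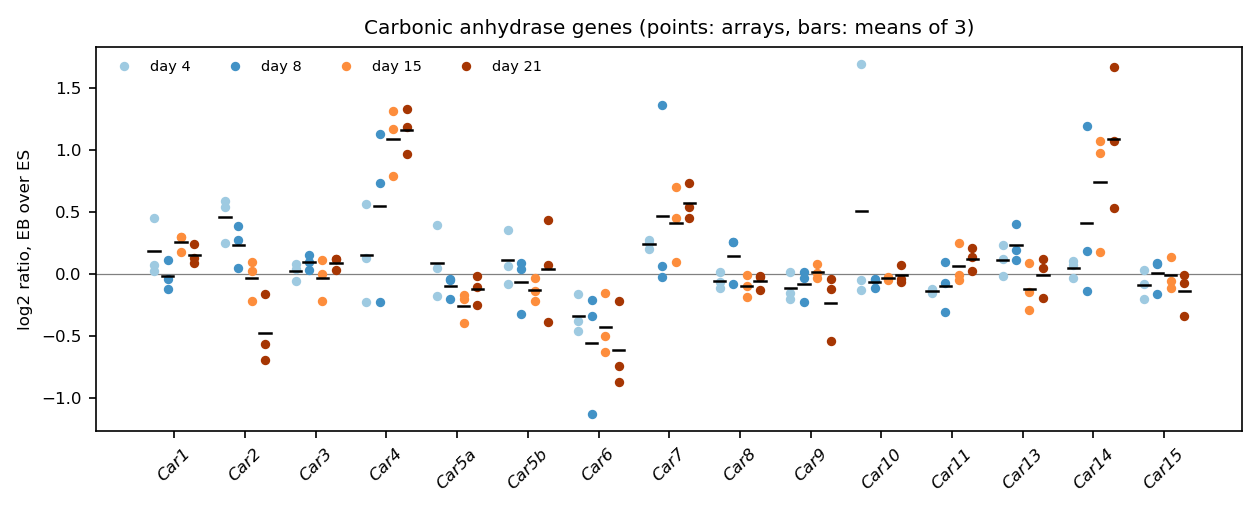
Log2 ratio of EB over ES for the measured carbonic anhydrase genes, 3 arrays (points) and their mean (bar) for each of 4 days. Car2 averaged -0.48 at day 21 against 0.46 at day 4, and the means of Car4 and Car14 were 1.17 and 1.09 at day 21.

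The wider erythroid lists held 66 measured genes besides the 4. By limma 0 were called at day 4 and 0 at day 8, with 5 and 9 at an unadjusted p under 0.05. At day 15, 4 were called higher and 1 lower, and at day 21, 7 higher and 4 lower. These counts are 5 and 11 of 66, beside 10.6% and 18.7% of all features, so neither exceeded the share of all features. By direction, 5.66% of all features were called higher and 4.9% lower at day 15, and 8.78% higher and 9.93% lower at day 21. The median of the 66 genes was 0.07 at day 15 and 0.03 at day 21. Without array 3 of day 15 the day 15 count was 11, and without array 1 or array 2 of that day it was 0. At day 21 the count was 5 without array 1 of that day and 3 without array 2.

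Of 17 erythroid transcription factor genes, Lmo2 was called higher on both late days and Klf1 lower at day 21. Lmo2, a bridging partner of TAL1 and GATA factors that endothelium also uses, was 0.82, 1.07 and -0.01 at day 15 (0.63 ± 0.56, adjusted p = 0.0455). It was 0.78, 0.88 and 0.06 at day 21 (0.57 ± 0.45, adjusted p = 0.0457). Its high and low arrays were those of Hba-x. The day 15 call of Lmo2 was lost whichever array of day 8 was left out, and without array 1 or 2 of day 15. Its day 21 call was lost without array 1 or 2 of day 21. Klf1, the erythroid activator of adult beta globin, was -0.58, -0.65 and -0.53 at day 21 (-0.59 ± 0.06, adjusted p = 6.40e-04), opposite in sign to Hbb-b2 on the same arrays. Zfpm1, the GATA1 cofactor, was 1.07, 0.86 and -0.30 at day 15 and was not called (0.54 ± 0.74, adjusted p = 0.103). Gata1 was near 0 at day 15 (0.03 ± 0.28, adjusted p = 0.877) and day 21 (0.06 ± 0.04, adjusted p = 0.683), as was Tal1 (0.11 ± 0.19 and 0.04 ± 0.24, adjusted p = 0.538 and 0.843).

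Of the 14 measured genes of the red cell membrane limma called 0 on each of the 4 days, with 3 at an unadjusted p under 0.05 at day 15 and 1 at day 21. Slc4a1, the anion exchanger band 3, was 0.29 ± 0.22 at day 15 (adjusted p = 0.127). Rhd, a protein of the Rh blood group complex, was -0.65, -1.45 and 0.07 at day 15 (-0.68 ± 0.76, adjusted p = 0.0769) and -0.44 ± 0.33 at day 21 (adjusted p = 0.2). Its array 3 was also the array nearest to 0 on both days, with the opposite sign to Hba-x on arrays 1 and 2. Among 24 genes of iron handling, erythropoietin signalling and red cell enzymes, Prdx2, an abundant peroxidase of red cells, was called higher at day 15 (0.48 ± 0.31, adjusted p = 0.0116). Tfrc, the transferrin receptor through which erythroid cells take up iron, was called lower at day 15 (-0.51 ± 0.05, adjusted p = 0.00881) and day 21 (-0.39 ± 0.13, adjusted p = 0.0216). At day 21 Cat, Fth1, Jak2, Hmox1 and Stat5b were called higher and Ireb2 lower. The largest of these were catalase Cat (0.83 ± 0.43, adjusted p = 0.0046) and the ferritin chain Fth1 (0.76 ± 0.24, adjusted p = 0.00766), which many cell types express. Epor, the erythropoietin receptor, was 0.24 ± 0.25 at day 15 (adjusted p = 0.442).

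**Figure D5:**
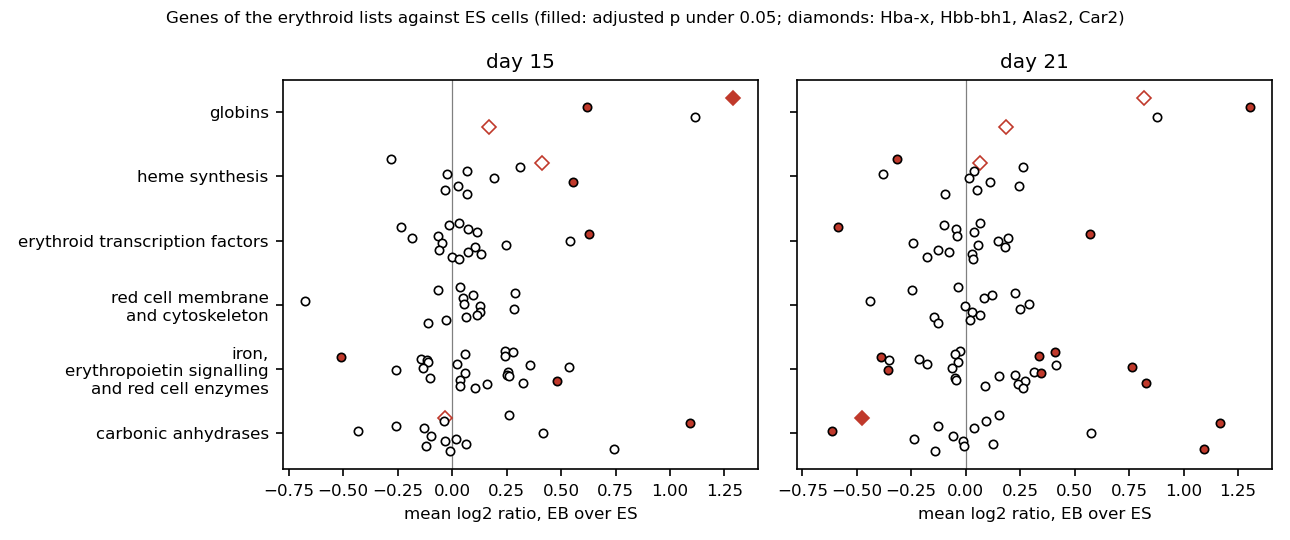
Mean log2 ratio of EB over ES of each measured gene in the erythroid lists and the carbonic anhydrases at day 15 and day 21, filled where limma's adjusted p was under 0.05 and drawn as diamonds for Hba-x, Hbb-bh1, Alas2 and Car2. Hba-x, Hbb-y and Hbb-b2 averaged between 0.62 and 1.31 on these days, and Hbb-bh1 0.17 and 0.18.

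Some markers of other cells were also called on the late days, when 5.66% of all features were called higher at day 15 and 8.78% at day 21. Of 7 megakaryocyte and platelet genes 1 was called higher at day 15 and 2 at day 21, with list medians of 0.05 and -0.02. Pf4, platelet factor 4, was called on both days (adjusted p = 0.00353 and 0.00472). Its ratios were 1.56, 1.25 and 0.53 at day 15 and 1.36, 1.16 and 0.33 at day 21, again lowest on array 3. The platelet list as a whole did not share this: its median was 0.21, 0.05 and 0.06 on the day 15 arrays. On the day 21 arrays it was 0.04, -0.10 and 0.13, highest on array 3. Of 11 endothelial genes 2 were called higher at day 15 and 5 at day 21, among them Sox18, at 0.75, 0.77 and 0.0043 on the day 15 arrays. The endothelial list median differed less between the day 15 arrays, at 0.11, 0.13 and 0.09. On the day 21 arrays it was 0.34, 0.38 and 0.19. Of 10 macrophage genes 3 and 6 were called higher, and their list median was highest on array 3 at both days (0.32 and 0.56, against 0.23 to 0.36 on arrays 1 and 2). The yolk sac endoderm and liver list had its lowest late medians on array 3, at 0.51 on day 15 and 0.74 on day 21. The ES cell list median was nearest to 0 on array 3 on both days. It was -1.04, -0.96 and -0.50 on the day 15 arrays and -1.54, -1.83 and -1.13 on those of day 21. Within each late day the SD over features was also smallest on array 3, at 0.32 and 0.35. Whether array 3 differed less from ES cells in general was not tested. Of the 7 blood progenitor genes limma called 0 on each day, with 0 and 0 at an unadjusted p under 0.05 at days 15 and 21, and the list median lay between -0.07 and 0.10 on all arrays. The part of these cells in the globin ratios was not tested.

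The genes whose ratios ran most like each member over the 12 arrays were taken as the 5 with the highest Pearson correlation among 9211 genes. Days, arrays and the common ES RNA are shared by all points, so these are descriptions. For Hba-x they were Ednrb, an endothelin receptor (r = 0.97), Hbb-y (0.97), Myl4, the atrial myosin light chain (0.96), Ptn, a growth factor (0.95), and Tac2 (0.95). For Alas2 they were Cdc16 (0.96), Rnf25 (0.95), Irs2 (0.93), Spata6 (0.92) and Ppox (0.92). For Car2 they were Letm1 (0.94), Mthfd1 (0.94), the DNA methyltransferase gene Dnmt3b (0.93), the purine synthesis gene Gart (0.92) and the replication factor gene Rfc5 (0.92). Hbb-bh1 had no pattern so closely matched: its highest were Orm3 (0.82), Mmp13 (0.78) and Scn1a (0.77). Between the members, r was 0.81 for Hba-x with Alas2, 0.26 for Hba-x with Hbb-bh1 and -0.63 for Hba-x with Car2.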

How the data were processed

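Per the labels, the authors deposited a normalized log ratio for each feature, taken here to be log2 by convention. How it was normalized, the scanner and the background correction are not given in the sources used here. RNA was transcribed in vitro with Cy3- or Cy5-UTP, per the labels' protocols. There were 11520 features, none of them missing on any of the 12 arrays, whose number limits the precision. Features were named through GEO's platform annotation: 10043 had 1 gene symbol, 29 several and 1448 none. By Entrez ID 10025 matched RefSeq's gene table. Probes of a gene were averaged. In R 4.3.3, limma 3.58.1 (lmFit, eBayes) was fitted over all 12 arrays with a mean for each day; each day was tested against 0, so the spread of ES cells is left out, and between days by contrasts and an F-test. The 4 tests against ES share the ES RNA. Two-sided p-values received Benjamini-Hochberg adjustment across 10689 features, with a threshold of 0.05; a feature that passed is said to be called. The fit was tested on simulated data. Alternatives were a replicate block, each day alone, quantile normalization, scaling, array weights, robust estimation, every probe on its own, features with 1 gene symbol and leaving out each array; array sets were added after seeing the data. Errors after ± are SDs over 3 arrays. In the erythroid and carbonic anhydrase lists every gene called on any day was named, with some of the others. From the lists of other cell types Pf4 and Sox18 are examples, and not all called genes are named. Further genes were named among the 5 most correlated with a member or by the split of the late arrays. Members and lists were chosen with earlier results of these data known. Promoter sequences are RefSeq's. Plots were drawn with matplotlib 3.10.9.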

Additional observations from a re-analysis of the deposited data

Results flagged for a closer look

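The effect of EB culture on Car2 differed between days. Day 21 minus day 4 was -0.93 (limma adjusted p = 0.00621), with -0.48 at day 21 and 0.46 at day 4 against ES, and the difference passed without each of the 12 arrays in turn (adjusted p from 0.00453 to 0.0348). With equal weight for the 12 arrays Hba-x, Hbb-bh1 and Alas2 had no called difference between days; with array weights Hba-x (F-test, adjusted p = 0.00389) and Alas2 (adjusted p = 0.0224) did.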

How the results depend on the processing

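Counts below are of the 4 genes. At day 4, where 0 were called, Car2 was the 1 called with quantile normalization, with array weights and with the set term. At day 15, where 1 was called, 2 were called with the replicate block, array weights, features with 1 gene symbol, the set term and the first set only, and 0 with day 15 alone or the second set only. At day 21, where 1 was called, 2 were called with the replicate block, array weights, features with 1 gene symbol, the set term and the first set only, and 0 with day 21 alone, quantile normalization, scaling or the second set only. Differences between days were called for 3 genes with array weights, 2 in the first set and 0 in the second. Leaving out 1 array gave 0 to 2 at day 15, at day 21 and between days. Of the 66 erythroid list genes, day 8 had 1 call with quantile normalization, 1 gene symbol or the set term, 2 with scaling and 6 with array weights (0 to 1 leaving out an array). Day 15 had 1 alone, 3 with quantile normalization, 25 with array weights, 13 in the first set and 0 in the second (0 to 11). Day 21 had 7 with quantile normalization, 6 with scaling, 20 with array weights and 2 in the second set (3 to 14). Hba-x at day 15 was 1.29 with day 15 alone (adjusted p = 0.0812), 0.38 in the second set, and 1.06 to 1.74 leaving out an array. Car2 at day 21 was -0.48 alone (adjusted p = 0.0607), -0.38 with quantile normalization, -0.37 with scaling, -0.16 in the second set, and -0.63 to -0.37 leaving out an array. In the second set its day 21 minus day 4 was -0.75 and its F was 6.63 (8.75 to 18.6 leaving out an array). Over all features, 1129 were called at day 15, against 259 alone, 3251 with array weights, 1742 in the first set and 115 in the second. At day 21, where 1999 were called, quantile normalization gave 1068, scaling 971 and the second set 226. Between days 310 were called, against 204 with quantile normalization, 166 with scaling, 1416 with array weights, 545 in the first set and 0 in the second. The causes were not tested.

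Signs that changed were of values without a call. Alas2 at day 8 was -0.00195 with quantile normalization, -0.0035 with scaling, -0.049 with array weights and -0.067 in the second set (-0.067 to 0.095 leaving out an array). Alas2 at day 21 was -0.11 in the second set (-0.0093 to 0.16), and its day 8 minus day 4 was -0.010 with array weights. Hba-x at day 4 was -0.00145 with array weights and -0.049 with the set term; with that term it was 0.073 at day 8 and 0.12 for day 8 minus day 4. In the second set Hba-x was -0.081 at day 21 and -0.17 for day 21 minus day 4. Hbb-bh1 at day 4 was -0.030 with array weights and -0.054 in the first set (-0.054 to 0.072), and its day 8 minus day 4 was 0.019 with array weights. Its day 21 minus day 15 was -0.046 with scaling and -0.02 in the second set (-0.35 to 0.39), and its day 21 minus day 4 was -0.011 in the second set. Leaving out an array, Hbb-bh1 was -0.20 to 0.54 at day 15, -0.13 to 0.61 for day 15 minus day 8 and -0.22 to 0.52 for day 15 minus day 4. Car2 at day 15 was 0.0078 with the set term and 0.020 in the second set (-0.10 to 0.057). Robust estimation and every probe on its own changed no call of the 4 genes. Turning the sign left all counts as they were; signed values with it are the printed ones exchanged and were not tabulated.

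Same-numbered arrays of different days had deviations that correlated by -0.14 to 0.39, with 8 of 18 pairs over 0.1, against -0.32 to 0.19 with 5 of 36 over 0.1 for arrays of different number. Not every same-numbered pair passed 0.1 and the labels tie the numbers to nothing, so the replicate block is given here alone. With it Alas2 at day 15 was 0.41 (adjusted p = 0.0237) and Hba-x at day 21 was 0.82 (adjusted p = 0.024). Fits within a set that leave a day with 1 array assume that it varies like the others.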

Other observations

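Features that share the split of Hba-x were counted after its values had been seen. On arrays 1 and 2 of both late days, 56 of 10689 features (0.524%) lay at least 1 above array 3 of the same day. Of these, 46 were among the 96 features without a gene by which the array sets were told apart. Array 3 of both late days was put in the second set for the low median of these features. Their count was thus largely fixed in advance, and 0.524% is not a share of genes. The other 10 of the 56 were genes: Hbb-y, Itih2, Apob, Hba-x, Jun, Myl2, Tdo2, Myl7, St3gal1 and Wdr5b. They include 2 embryonic globins, 2 myosin light chains of heart muscle (Myl2 and Myl7), and 3 genes that liver expresses (Apob, Itih2 and Tdo2). In the opposite direction, with array 3 higher by at least 1 on both days, there were 5 features, 3 of them with a gene. The part of the array sets in these differences was not tested for single genes beyond the set term. For that term 1.1% of all features were called, with the 96 features among those tested.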
